A study of Chlamydomonas reinhardtii with 28 samples.

Results

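The genes described here build and service the cilia of *Chlamydomonas reinhardtii*: the subunits of the axonemal dyneins, the radial spokes, the intraflagellar transport (IFT) particles and the BBSome, and the proteins that assemble the dyneins. They were chosen by name. A gene was included when its symbol was IFT, BBS, RSP, ODA, DHC, DIC or DLC followed by a number, or when its definition held "dynein", "radial spoke" or "intraflagellar transport", and genes named FAP were left out. This gave 118 of the 17611 genes in the deposited table, which were sorted by their known roles into 13 groups.

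The 118 genes were compared among 7 laboratory strains that are all used as wild type, with 4 biological replicates each: CC-124 (mt-), CC-125 (mt+), CC-1009 (mt-), CC-1690 (mt+), CC-1691 (mt-), CC-4532 (mt-), the strain of the reference genome, and CC-4533 (mt-), the parent of a widely used insertion mutant library. The cultures received no treatment. The study reports that a strain ancestral to CC-4533 had been exposed to a chemical mutagen. All cultures grew photoheterotrophically in acetate medium with shaking at 180 rpm under continuous light of 50 to 70 µmol photons per square meter and second, and were collected in mid-logarithmic phase. Poly-adenylated RNA was sequenced, and levels are given as FPKM, the fragments per kilobase of transcript scaled to the size of the library, a unit that allows comparison between genes.

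A cilium is driven by dynein motors that slide its microtubule doublets past each other. Outer arm dyneins set mainly the beat frequency and inner arm dyneins the shape of the beat, and the radial spokes and the nexin-dynein regulatory complex relay control signals to the arms. Heavy chains carry the motor domain and are among the largest proteins of the cell, whereas intermediate and light chains are small. Axonemal dyneins are assembled in the cytoplasm with the help of dedicated factors and are then carried into the cilium by IFT, in which the IFT-B particles move outward with kinesin and the IFT-A particles and a cytoplasmic dynein return them to the base. The BBSome travels with these particles and removes membrane proteins from the cilium. *Chlamydomonas* resorbs its cilia before it divides and grows them again afterwards.

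The deposited table holds values for all 28 libraries, with between 16121 and 16594 genes above 0 FPKM in each. The FPKM values of a library summed to between 480355 (CC-124 replicate 2) and 1319900 (CC-1690 replicate 2), so levels are not scaled to a common total. The depth of the libraries is unknown, because the values carry no read counts. By their library names, CC-125 and CC-4533 belong to a second set of libraries, so that set and strain cannot be told apart for these 2 strains. MID1, which specifies the minus mating type, lay between 3.12 and 11.4 FPKM in the libraries of the 5 mt- strains and at or below 0.08 FPKM in those of the 2 mt+ strains. MTD1 was less clear, with 0.05 to 0.15 FPKM in CC-4533 and 0.36 to 2.81 FPKM in the other mt- strains. In the mt+ strains it was at or below 0.07 FPKM. FUS1, a gene of the plus mating type, was at 0 FPKM in all libraries of the mt- strains. It had 0.02 to 0.09 FPKM in CC-125 and 0 to 0.1 FPKM in CC-1690. It was thus seen only in mt+ strains, but too close to the floor to mark that label clearly. No other plus gene is shown. CC-4533 replicate 3 stands apart in the ciliary genes, and results are given with and without it. In addition, the difference between strains varied with gene length over the whole genome, above all in CC-1690, and values with this trend removed from each library are given as span-corrected beside the results that it changes most.

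All 118 genes passed the expression filter, a strain mean over 1 FPKM in any of the 7 strains, and each was detected in all 28 libraries. Their mean levels over the libraries ranged from 1.13 FPKM for PF22, a dynein assembly factor, to 327 FPKM for LC8, a light chain shared by several dyneins and the radial spokes, with a median of 11.5 FPKM. Across all 14785 genes tested the median was 4.67 FPKM. Only 3 members exceeded 100 FPKM. These were LC8, the actin IDA5 with 304 FPKM, which is a subunit of some inner arm dyneins as well as the conventional actin of the cell, and RSP20, which is calmodulin, with 201 FPKM. All 3 of these proteins also act outside the cilium.

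**Figure D1:**
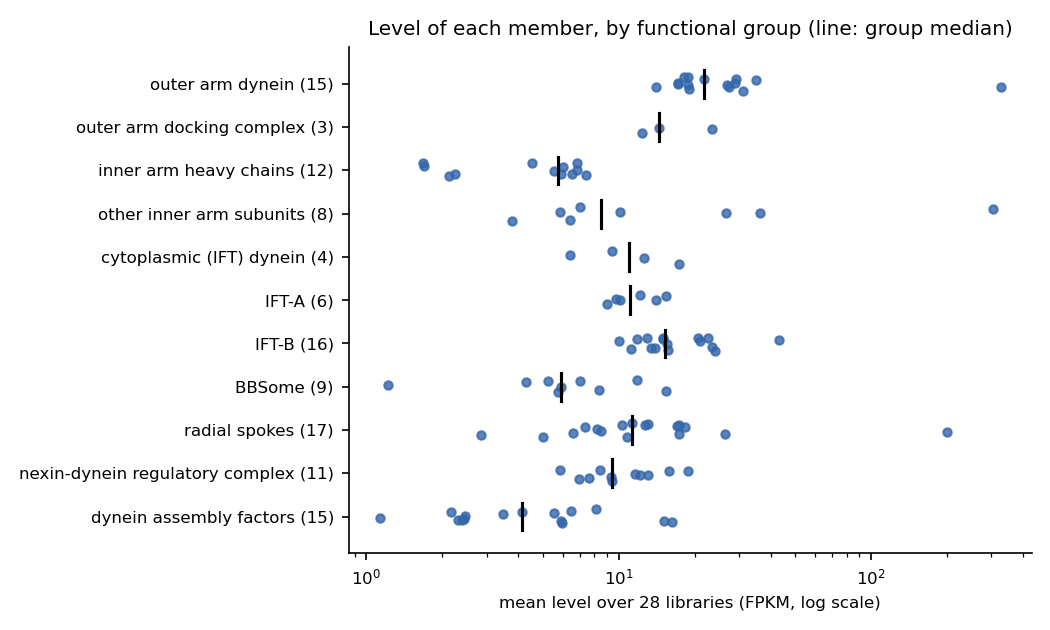
Mean level of each gene over the 28 libraries (horizontal axis, FPKM on a log scale) for the 11 groups with 3 or more genes, with the number of genes in parentheses. Each point is a gene and each vertical line a group median. Outer arm dynein subunits had the highest median, 21.8 FPKM, and dynein assembly factors the lowest, 4.13 FPKM.

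The outer arm heavy chains DHC13, DHC14 and DHC15, which are present in equal numbers in the arm, were close to each other at 17.2, 18.9 and 19.0 FPKM. The 12 inner arm heavy chains were lower, with a median of 5.73 FPKM, and fell into 2 levels. DHC3, which the annotation calls a pseudogene, DHC4, DHC11 and DHC12 lay between 1.68 and 2.24 FPKM, and the other 8 between 4.52 and 7.45 FPKM. DHC1 and DHC10, the heavy chains of the double-headed dynein f, had 7.45 and 6.55 FPKM. DHC16, the heavy chain of the cytoplasmic dynein that returns IFT particles, had 12.6 FPKM. The 16 IFT-B genes lay between 10.0 FPKM (IFT81) and 43.0 FPKM (IFT20), and the 6 IFT-A genes between 9.02 FPKM (IFT140) and 15.5 FPKM (IFT43). In the BBSome group BBS3A was the lowest, at 1.22 FPKM, and BBS3 the highest, at 15.4 FPKM. Except for RSP20, the radial spoke genes spanned 2.84 FPKM (RSP17) to 26.4 FPKM (RSP9).

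In CC-4533 replicate 3 nearly the whole set was higher than in replicates 1, 2 and 4 of the same strain. In 110 of the 118 genes its value exceeded all 3 other replicates, compared with 42.8% of all genes tested. In 67 it was more than 2-fold above their mean, and in 0 it was more than 2-fold below. The median log2 difference of the 118 genes was 1.08, or 2.12-fold, and 0.02 for all genes tested. Of all genes tested, 10.3% were more than 2-fold higher and 10.9% more than 2-fold lower in that library. In 74 of the 118 genes it held the highest value of all 28 libraries, as it did in 13.4% of all genes tested, and in 0 the lowest, compared with 14.9% of all genes. This compares 1 library with 3 others and has no replicate check.

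The size of the increase in CC-4533 replicate 3 differed between the groups. The IFT-B genes had the largest rise among the groups with more than 3 genes, with a median of 2.70-fold and a range of 2.31-fold to 3.58-fold. IFT38, a peripheral IFT-B subunit, had 28.7 FPKM in replicate 3, against 6.82, 8.53 and 8.60 FPKM in replicates 1, 2 and 4. IFT172, the largest IFT-B subunit, had 20.2 FPKM in replicate 3, against 5.50, 6.05 and 6.47 FPKM in the others. In both genes replicate 3 was above the other 27 libraries, while the other 3 replicates were below all libraries of the other 6 strains.

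The remaining motor and transport groups were also higher in CC-4533 replicate 3, by a median of 2.53-fold for the 4 cytoplasmic dynein subunits, 2.40-fold for the 17 radial spoke genes, 2.26-fold for the 11 genes of the nexin-dynein regulatory complex, 2.11-fold for the IFT-A genes and 1.99-fold for the inner arm heavy chains. For the 15 outer arm subunits the median log2 difference was 1.07. The 9 BBSome genes had a median of 1.50-fold and the 15 assembly factors one of 1.31-fold. All of these are ratios to the mean log2 level of replicates 1, 2 and 4. Genes below all 3 other replicates numbered 4: IDA5, the assembly factors FBB5 and DAA1, and RSP20. Of the 14785 genes tested, 6086 were below all 3. IDA5 had 253 FPKM in replicate 3, against 357, 411 and 399 FPKM in replicates 1, 2 and 4.

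Outside the set, the 336 FAP genes tested, named for proteins found in the ciliary proteome, were higher in CC-4533 replicate 3 by a median of 2.07-fold and 126 other genes with ciliary definitions or names by 1.30-fold. The 24 cell division genes include the MCM helicase and the replication origin complex. They were lower than all 3 other replicates in 24 of 24 cases, compared with 6086 of the 14785 genes tested. Their median was 0.293-fold. Relative to the mean of the strains, the median log2 level of the cell division genes was -0.41 in replicate 3 and between 1.30 and 1.37 in replicates 1, 2 and 4, the highest values of the 28 libraries. The median of the 118 ciliary genes was 0.78 in replicate 3 and between -0.40 and -0.18 in replicates 1, 2 and 4. The part of cell division in the ciliary result was not tested.

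**Figure D2:**
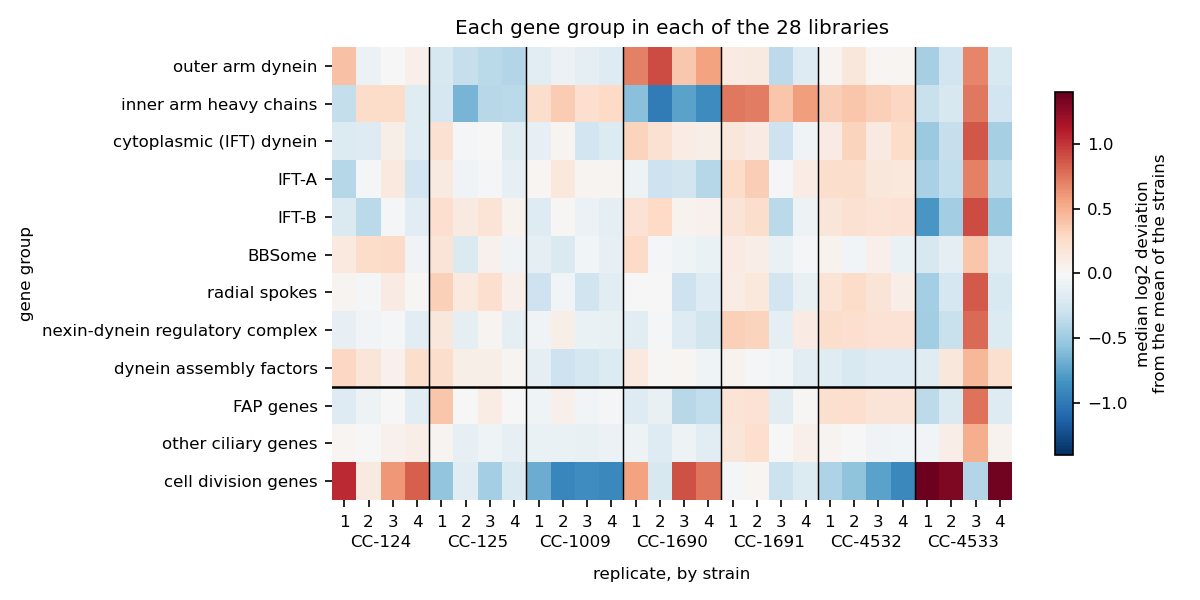
Median log2 deviation of each gene group (rows) from its mean over the strains in each of the 28 libraries (columns, replicates 1 to 4 of each strain), with red for higher and blue for lower. Groups of the set stand above the horizontal line and 3 other gene lists below it. CC-4533 replicate 3 is red in all 9 groups of the set shown and blue in the cell division genes, opposite to the other CC-4533 replicates in most rows.

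Differences between strains were tested with limma on log2(FPKM + 0.1) across all 14785 genes, with Benjamini-Hochberg adjustment over all of them. In the moderated F test over the 7 strains, 84 of the 118 genes differed at an adjusted p below 0.05, or 71.2%, compared with 95.2% of all genes tested. Without CC-4533 replicate 3 it was 113 of the 118 genes, compared with 97.9% of all genes tested. Every test uses the spread within strains, to which that library contributed. The median within-strain standard deviation was 0.28 on the log2 scale for the 118 genes and 0.23 for all genes. The 5 genes that did not pass even without it were RSP8, BBS3A, ODA7B, ODA5 and DII2, a subunit of the single-headed dynein d. In these genes the highest and lowest strain means differed by 1.14-fold to 1.68-fold over all libraries.

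Large differences were fewer than among all genes tested. The ratio between the extreme strain means had a median of 1.70 in the 118 genes and 2.38 in all genes tested, and its largest value in the set was 3.68, in DHC2. Without CC-4533 replicate 3 the medians were 1.87 and 2.39, and the ratio of RSP12 reached 5.11. The study called differentially expressed genes (DEGs) at above 1 FPKM, an s-value below 0.01 and more than a 2-fold difference. DEGs are counted here by limma's treat test against 2-fold, at an adjusted p below 0.01 in each of the 21 strain pairs. This is stricter than a separate 2-fold limit. The test found 2 members, compared with 30.2% of all genes tested. These were TWI1, between CC-1009 and CC-1690, and DHC2, between CC-1690 and CC-1691. When CC-4533 replicate 3 was left out it found 14 members, compared with 35.2% of all genes tested. These were the inner arm heavy chains DHC2, DHC8, DHC9, DHC10, DHC11 and DHC12, the light chains LC7A and LC8, IFT20, IFT27, IFT172, RSP12, TWI1 and FBB5. The count stood between 1 and 4 when any other single library was left out, and at 1 without CC-1690 replicate 2 or 4 or CC-1691 replicate 1 or 4. A moderated test with a separate 2-fold limit, closer in form to the rule of the study, called 41, compared with 64.1% of all genes tested. Against the other 6 strains together, 0 members passed limma's treat test at an adjusted p below 0.01 in any strain, compared with 15.1% of all genes tested, while between 26 and 79 members per strain, and 53.1% to 71.7% of all genes tested, had an unadjusted p below 0.05 in the moderated test. When CC-4533 replicate 3 was left out, IFT20 and IFT27 passed the treat test in CC-1690, compared with 17.7% of all genes tested.

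Each strain was then set against the mean of the other 6, with a moderated test at an adjusted p below 0.05. These 7 comparisons share their libraries and are not independent of each other. CC-1690 had the most calls, with 37 of the 118 genes higher and 38 lower, compared with 34.2% higher and 35.3% lower among all genes tested. Without CC-4533 replicate 3 the counts in CC-1690 were 43 higher and 45 lower, compared with 36.6% and 37.5% of all genes. Genes of the same complex moved in opposite directions in this strain, with the long heavy chains lower and most of the short light chains higher.

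All 16 dynein heavy chains fell in CC-1690, with a median log2 difference of -0.90, against 0.00 for all genes tested. The 4 small IFT-B subunits IFT20, IFT22, IFT25 and IFT27 all rose, with a median of 1.28. Of the 10 outer arm light chains 9 rose and the remaining one, DLE1, was not called, with a median of 0.98. DHC2, an inner arm heavy chain, had 3.07, 2.09, 2.47 and 1.87 FPKM in CC-1690, against a range of 2.92 to 10.1 FPKM and a median of 6.98 FPKM in the other 24 libraries. Only the highest CC-1690 library overlapped the others. The log2 difference was -1.34 ± 0.17 (standard error, adjusted p = 1.16e-07 by limma), and -0.72 after the span correction.

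DHC8, DHC9 and DHC12, further inner arm heavy chains, showed no overlap at all. DHC12 had 0.89, 0.69, 0.87 and 0.75 FPKM in CC-1690, against 1.03 to 2.89 FPKM with a median of 1.75 FPKM in the other 24 libraries, a log2 difference of -1.07 ± 0.12 (adjusted p = 1.27e-08 by limma). In this strain DHC8 averaged 2.95 FPKM and DHC9 3.46 FPKM, against 6.54 and 7.42 FPKM over the other 6 strains. Their log2 differences were -1.07 ± 0.14 and -1.04 ± 0.14 (adjusted p = 2.86e-07 and 4.55e-07 by limma). After the span correction the log2 differences were -0.35 for DHC12, -0.42 for DHC8 and -0.30 for DHC9. In all, 7 members lay below and 6 above every library of the other strains in all 4 CC-1690 replicates, compared with 7.1% and 7.06% of all genes tested.

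Among the small subunits LC8 had 585, 917, 567 and 735 FPKM in CC-1690, against 183 to 499.7 FPKM with a median of 247 FPKM elsewhere. All 4 CC-1690 libraries were above the rest, by a log2 difference of 1.42 ± 0.15 (adjusted p = 5.92e-09 by limma), which was 0.57 after the span correction. IFT27, a small GTPase that forms a pair with IFT25, had 47.8, 64.5, 43.0 and 47.3 FPKM in CC-1690, against 13.1 to 42.7 FPKM with a median of 16.5 FPKM, again without overlap and with a log2 difference of 1.47 ± 0.19 (adjusted p = 1.56e-07 by limma). The highest of the other libraries in this gene was CC-4533 replicate 3. DLL3, an outer arm light chain, averaged 48.6 FPKM in CC-1690 and 23.7 FPKM over the other 6 strains, with a log2 difference of 1.09 ± 0.16 (adjusted p = 2.29e-06 by limma). The span-corrected log2 differences were 0.84 for IFT27 and 0.69 for DLL3.

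IFT20, which links the IFT-B particle to vesicle traffic from the Golgi, had the largest difference of the set in CC-1690, with 85.5, 134.7, 79.2 and 95.4 FPKM, against 25.2 to 79.5 FPKM with a median of 29.8 FPKM elsewhere. CC-4533 replicate 3 supplied the only overlap. The log2 difference was 1.57 ± 0.19 (adjusted p = 4.84e-08 by limma), and 0.93 after the span correction. LC7A, a roadblock-type light chain of the outer arm, had the largest ratio of strain means in its group, 3.40. The gene spans only 0.84 kb. Its F test over the strains gave an adjusted p of 1.93e-07, and of 0.000538 after the span correction (limma). LC7A had 50.8, 81.9, 46.7 and 59.2 FPKM in CC-1690, against 14.9 to 53.6 FPKM with a median of 21.3 FPKM elsewhere, where the highest value was again that of CC-4533 replicate 3.

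**Figure D3:**
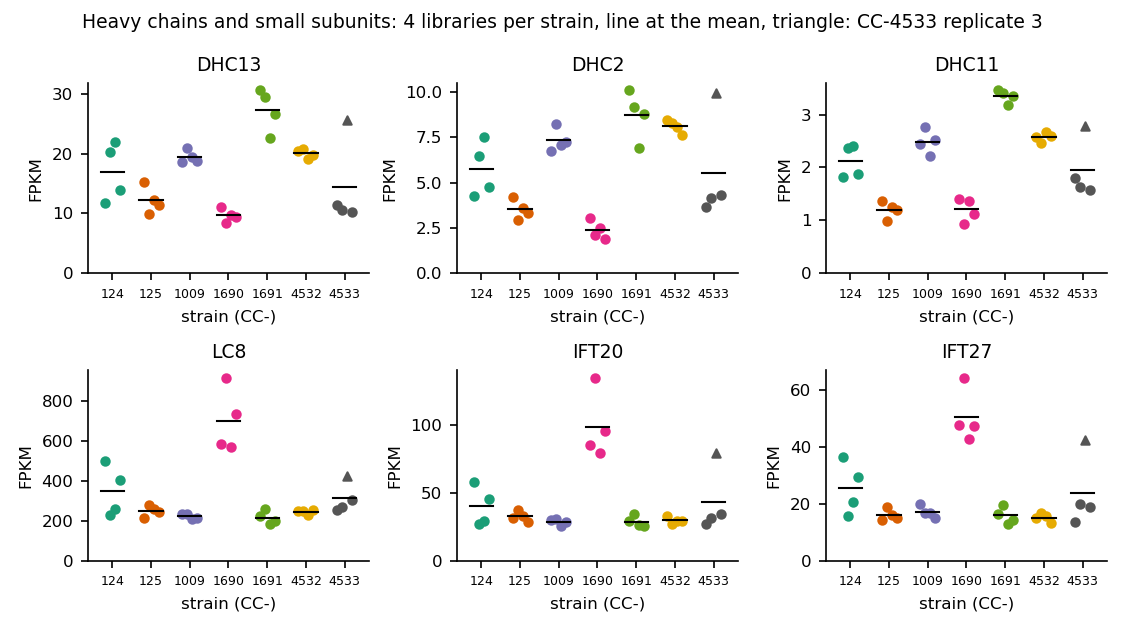
FPKM of 3 heavy chains (DHC13, DHC2, DHC11) and 3 small subunits (LC8, IFT20, IFT27) in the 7 strains, with 1 point per library, a line at the mean of 4 and a triangle for CC-4533 replicate 3. In CC-1690 the heavy chains were low and the small subunits high, and in CC-1691 the heavy chains were high.

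The same division by size ran through all genes in CC-1690. Genomic span, taken from the RefSeq annotation, was known for 117 of the 118 members and 91.6% of all genes tested. Among all genes, the median log2 difference in CC-1690 was 0.65 for the 982 genes of up to 2 kb, 0.20 for those of 2 to 5 kb, -0.23 for 5 to 10 kb, -0.54 for 10 to 20 kb and -0.66 for the 141 genes over 20 kb. The heavy chains span 12.7 to 32.5 kb and the small IFT-B genes 1.50 to 1.84 kb. When a smooth trend on span was removed from each library before the fit, the median in CC-1690 was -0.26 for the 16 heavy chains, 0.38 for the outer arm light chains and 0.67 for the 4 small IFT-B genes. Of the heavy chains 9 were then called lower and 1, DHC3, higher, of the 10 light chains 6 higher and 1 lower, and of the small IFT-B genes 3 higher. The correction left 25 higher and 24 lower members, compared with 31.2% and 32.3% of all genes tested, of which 38 were also called before it and 36 of those in the same direction. Members called in CC-1690 thus numbered 49 with the correction and 75 without.

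**Figure D4:**
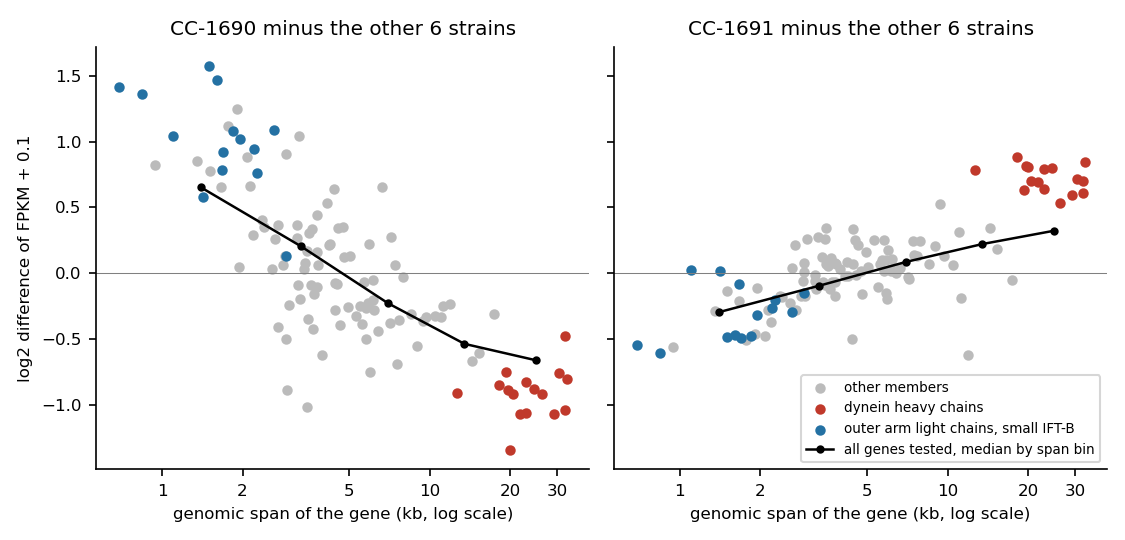
Log2 difference of each member (points) in CC-1690 (left) and CC-1691 (right) from the mean of the other 6 strains, on the log2(FPKM + 0.1) scale, against the genomic span of the gene (log scale). Red points are the 16 dynein heavy chains, blue points the outer arm light chains and small IFT-B genes, and the black line is the median of all genes tested in 5 span bins. The line falls in CC-1690 and rises in CC-1691.

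In CC-1690 RSP2 and RSP9 went against the trend. RSP2, a spoke stalk protein that binds calmodulin, had 4.37, 4.80, 3.59 and 3.99 FPKM in CC-1690, against 5.08 to 15.7 FPKM with a median of 8.62 FPKM elsewhere, without overlap. RSP9, a spoke head protein, had 14.7, 22.3, 11.4 and 12.97 FPKM in CC-1690, against 16.3 to 49.1 FPKM with a median of 27.9 FPKM elsewhere, with overlap in replicate 2. The span of both is under 5 kb, where the median of all genes in CC-1690 was positive, and their log2 differences were -1.21 each after the correction and -1.02 and -0.89 before it. Both genes were singled out after their values were seen, and they were not alone. After the correction the 17 radial spoke genes had a median of -0.31 in CC-1690, with 7 called lower and 2 higher. Of all genes tested, 32.3% were then lower and 31.2% higher. The FAP genes had a corrected median of -0.22.

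CC-1691 was the counterpart for the heavy chains. All 16 rose in this strain and all 16 had their highest strain mean in it, while 14 had their lowest in CC-1690 and the remaining 2 in CC-125. The median log2 difference of the heavy chains in CC-1691 was 0.71, compared with 0.32 for all genes over 20 kb, and 0.37 after the span correction. DHC11 had 3.47, 3.40, 3.19 and 3.36 FPKM in CC-1691, against 0.94 to 2.78 FPKM with a median of 1.84 FPKM elsewhere, without overlap and with a log2 difference of 0.84 ± 0.11 (adjusted p = 8.73e-07 by limma), which was 0.43 after the span correction. It was the only member whose 4 CC-1691 libraries were all above the rest, compared with 1.79% of all genes tested. Of the outer arm heavy chains, DHC13 had 30.7, 29.4, 22.7 and 26.6 FPKM in CC-1691, against 8.48 to 25.6 FPKM with a median of 14.6 FPKM elsewhere. Its CC-1691 libraries were above all others except CC-4533 replicate 3, which lay above the lowest of them.

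In all, 18 members rose and 15 fell in CC-1691, compared with 23.4% and 23.6% of all genes tested. The heavy chains made up 16 of the 18. The 4 small IFT-B genes fell in this strain, with a median log2 difference of -0.48, but after the span correction 0 of them were called and the median was -0.21. With the span correction 18 members were higher and 6 lower, compared with 22.2% and 21.6% of all genes tested. With CC-4533 replicate 3 left out, 34 rose and 16 fell, compared with 27.3% and 28.6% of all genes tested. The count of 15 that fell was 7 without CC-1691 replicate 3, in which several groups were lower than in the other replicates, and 9 without CC-1691 replicate 1 or 4.

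CC-125 had low heavy chains without a strong trend of all genes on span. Of the 16, 14 fell, with a median log2 difference of -0.50 and of -0.39 after the span correction, where all genes over 20 kb had a median of -0.14. DHC15, the gamma heavy chain of the outer arm, averaged 13.2 FPKM in CC-125. Of the 15 outer arm subunits 9 fell and 0 rose, 6 of the light chains among them. The radial spoke genes had a median of 0.30, with 3 of 17 called higher and 0 lower, and 10 higher and 1 lower without CC-4533 replicate 3.

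In total 15 members rose and 26 fell in CC-125, compared with 30.4% and 28.5% of all genes tested. Without CC-4533 replicate 3 the counts were 33 and 29, compared with 34% and 32.8%. They were 9 and 29 after rescaling by the median ratio and 9 and 34 after quantile normalization. The 15 that rose were 7 without CC-125 replicate 1, in which the FAP genes and radial spokes were highest, and 9 without CC-125 replicate 3. ODA7A, a leucine-rich repeat protein needed to assemble outer arms, had 8.81, 7.91, 8.46 and 8.40 FPKM in CC-125, against 4.38 to 7.80 FPKM with a median of 6.26 FPKM elsewhere. It did not overlap, as the only member to lie above all others in CC-125, compared with 6.61% of all genes tested. Its log2 difference was 0.45 ± 0.08 (adjusted p = 1.48e-05 by limma).

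In CC-1009 more members fell than rose, 25 against 10, where all genes tested had 24.5% lower and 25.4% higher. Without CC-4533 replicate 3 it was 34 lower and 15 higher, compared with 29.1% and 29.2%, and with quantile normalization 28 lower and 5 higher. Of the 10 that rose, 9 were heavy chains, of which 6 were called after the span correction, and without CC-1009 replicate 2 only 2 members rose. Among those that fell were 6 of the 15 assembly factors, and 0 assembly factors rose. TWI1, a Twister-like assembly factor, had 3.11, 2.97, 3.05 and 3.14 FPKM in CC-1009, against 3.95 to 10.7 FPKM with a median of 5.78 FPKM elsewhere. The CC-1009 libraries were the 4 lowest of all, by a log2 difference of -0.96 ± 0.09 (adjusted p = 3.48e-09 by limma) and of -0.85 after the span correction.

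FBB18, another assembly factor, averaged 3.79 ± 0.52 FPKM in CC-1009 (SD, n = 4) and 5.82 FPKM over the other 6 strains, again without overlap, with a log2 difference of -0.60 ± 0.10 (adjusted p = 1.45e-05 by limma). These were the 2 members that lay below all other libraries in CC-1009, compared with 1.01% of all genes tested. PF23, whose human counterpart is mutated in primary ciliary dyskinesia, had 1.26, 1.30, 1.02 and 1.39 FPKM in CC-1009, against 1.36 to 5.74 FPKM with a median of 2.42 FPKM elsewhere. Its next lowest strain was CC-1691, whose mean was 1.51 FPKM and of which only replicate 3 overlapped with CC-1009. The highest value was that of CC-4533 replicate 3. PF23 was chosen after its values were seen.

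In CC-4532 25 members rose and 14 fell, compared with 26.6% and 27.4% of all genes tested. Of the heavy chains 11 rose and 0 fell, of the 11 genes of the nexin-dynein regulatory complex 4 rose and 0 fell, and of the 15 assembly factors 1 rose and 7 fell. Leaving out CC-4533 replicate 3 gave 59 higher and 15 lower, compared with 30.9% and 31.1% of all genes, and the risers then included 12 of 17 radial spoke genes, 10 of 16 IFT-B genes and 8 of 11 genes of the regulatory complex. The 25 that rose were 14 without CC-4532 replicate 2 and 16 without CC-4532 replicate 4.

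IFT172 had 17.7, 18.1, 17.7 and 16.7 FPKM in CC-4532, against 5.50 to 20.2 FPKM with a median of 9.71 FPKM elsewhere, and only CC-4533 replicate 3 was higher. The gene was singled out after its values were seen. FBB5, an assembly factor found in the basal body proteome, had 2.77, 2.27, 2.56 and 2.24 FPKM in CC-4532, against 2.84 to 7.82 FPKM with a median of 3.98 FPKM elsewhere, with no overlap and a log2 difference of -0.75 ± 0.13 (adjusted p = 2.25e-05 by limma). FBB5 was highest in CC-1690, where all 4 libraries lay between 6.94 and 7.82 FPKM. IDA5 had 211, 211, 207 and 209.6 FPKM in CC-4532, against 212 to 499 FPKM with a median of 341 FPKM elsewhere. The gap to the lowest CC-1691 library was small, and the log2 difference was -0.55 ± 0.10 (adjusted p = 6.44e-05 by limma). FBB5 and IDA5 were the 2 members below all other libraries in CC-4532, compared with 2.45% of all genes tested.

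In CC-124 12 members rose and 8 fell, compared with 25.6% and 27.9% of all genes tested, and 25 rose and 16 fell without CC-4533 replicate 3, compared with 28.7% and 30.8%. The split was 18 to 4 after rescaling by the median ratio and 21 to 3 after quantile normalization. Of the 12 that rose, 6 were assembly factors and 3 BBSome genes. The 8 that fell were 4 without CC-124 replicate 4 and 5 without CC-124 replicate 1.

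The 4 replicates of CC-124 did not behave alike. LC8 had 499.7 and 405 FPKM in replicates 1 and 4, and 228 and 258 FPKM in replicates 2 and 3. DHC13 had 11.8 and 13.9 FPKM in replicates 1 and 4, and 20.2 and 21.9 FPKM in replicates 2 and 3. All genes of up to 2 kb had a median deviation of 0.35 and 0.21 in replicates 1 and 4 and of -0.15 and -0.16 in replicates 2 and 3. The cultures of this strain were inoculated as 2 batches of 2, the sources used here do not assign replicates to them, and the part of the batch was not tested.

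For CC-4533 the answer depended on replicate 3. With all 4 replicates 13 members rose and 6 fell, compared with 29.2% and 30.3% of all genes tested, and the split was 21 to 1 with quantile normalization and 13 to 12 with the span correction, compared with 30% and 31.1% of all genes tested. With replicates 1, 2 and 4 alone, 8 rose and 68 fell, compared with 31.2% and 32.2% of all genes tested. The genes that then fell included 12 of 16 IFT-B genes, 4 of 6 IFT-A genes, all 4 subunits of the cytoplasmic dynein, 11 of 15 outer arm subunits, 11 of 17 radial spoke genes and 9 of 11 genes of the regulatory complex, but 1 of 15 assembly factors. The IFT-B group had a median log2 difference of -0.68 without replicate 3 and -0.29 with it. The cell division genes were higher in CC-4533 in 24 of 24 cases without replicate 3, with a median of 1.50, and 23 of 24 with it. Leaving out CC-4533 replicate 1 gave 20 higher and 1 lower, replicate 2 gave 9 higher and 2 lower, and replicate 4 gave 13 higher and 1 lower.

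RSP12, a peptidyl-prolyl isomerase of the spoke stalk, fell in CC-4533 with and without replicate 3. It had 5.89, 5.86, 20.1 and 6.61 FPKM in CC-4533, against 9.65 to 42.3 FPKM with a median of 16.7 FPKM in the other 24 libraries. Replicates 1, 2 and 4 were below every library of the other strains, and replicate 3 was within their range. The log2 difference was -1.07 ± 0.20 (adjusted p = 6.55e-05 by limma) and without replicate 3 -1.50 ± 0.15 (adjusted p = 2.20e-09 by limma). RSP12 had the largest ratio of strain means among the radial spokes, 3.26, between CC-1690 and CC-4533, and the ratio was 5.11 without replicate 3.

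The BBSome varied little, with a median ratio of strain means of 1.49, and its exception was BBS1, a core subunit that binds the membrane-associated GTPase of the complex. BBS1 had 10.7, 9.25, 9.01 and 10.6 FPKM in CC-124 and 10.2, 10.3, 10.0 and 9.53 FPKM in CC-1690, against 4.36 to 8.20 FPKM in the other 20 libraries. The 2 strains lay above all others and overlapped with each other. The log2 differences from the mean of the other 6 strains were 0.63 ± 0.07 in CC-124 and 0.65 ± 0.07 in CC-1690 (adjusted p = 9.97e-08 and 2.45e-08 by limma). The lowest strain mean was 4.72 FPKM, in CC-4532. BBS3A had the smallest ratio of the group, 1.24, and did not pass the F test (adjusted p = 0.887 by limma). It is annotated like BBS3, and reads shared by similar copies may have been divided between them, as also for the pairs ODA7A and ODA7B, and RSP4 and RSP6.

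**Figure D5:**
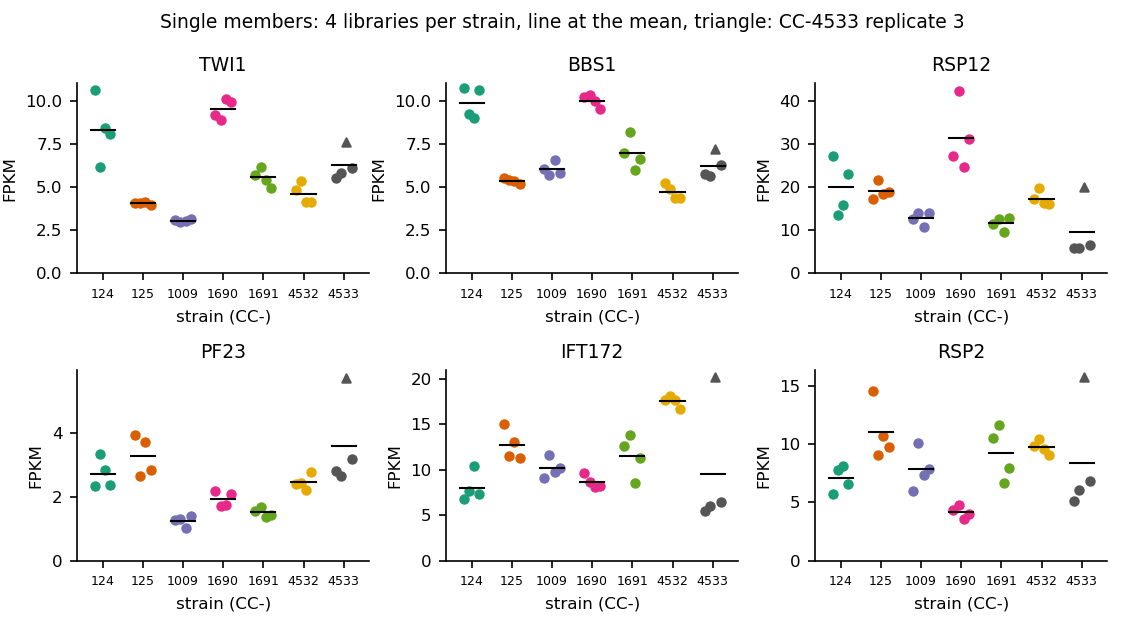
FPKM of 6 members of different groups (TWI1, BBS1, RSP12, PF23, IFT172, RSP2) in the 7 strains, with 1 point per library, a line at the mean of 4 and a triangle for CC-4533 replicate 3. TWI1 was lowest in CC-1009, BBS1 highest in CC-124 and CC-1690, and RSP12 lowest in 3 of the 4 CC-4533 libraries.

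Among the dynein assembly factors TWI1 had the largest ratio of strain means, 3.11, with 9.53 FPKM in CC-1690 as its highest mean, and ODA7B the smallest, 1.18. Of the assembly factors 13 of 15, or 86.7%, passed the F test both with and without CC-4533 replicate 3. Among all genes tested, 95.2% passed with that library and 97.9% without it. The median within-strain standard deviation of the assembly factors was 0.19 on the log2 scale. This was close to that of all genes tested at 0.23 and below that of the IFT-B genes at 0.34. In the IFT-B group 7 of 16 passed the F test with all libraries and 16 of 16 without CC-4533 replicate 3. IFT56, with the smallest ratio of that group, 1.29, passed only without it (adjusted p = 0.310 with and 1.76e-06 without by limma). In the regulatory complex the counts were 4 of 11 and 11 of 11.

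Within the other groups, the smallest ratios of strain means were 1.25 for DIC1, an outer arm intermediate chain, 1.45 for DCC1, a docking complex subunit, 1.14 for DII2, 1.29 for DIC5, an intermediate chain of the cytoplasmic dynein, 1.35 for IFT122, 1.23 for RSP8 and 1.31 for DRC10. The largest were 1.79 for DCC2 of the docking complex, 2.24 for DII1, the p28 light chain of inner arms, 2.31 for DHC16, 1.79 for IFT139 and 1.98 for DRC1. DII1 was highest in CC-1690, with 57.2 FPKM, and IFT139 was highest in CC-1009, with 14.7 FPKM, and lowest in CC-1690, with 8.20 FPKM. DHC16 resembled the axonemal heavy chains in its order of strains, with 17.4 FPKM in CC-1691 as the highest mean and 7.54 FPKM in CC-1690 as the lowest. Of its partner subunits DIC6 was highest in CC-125, while DLI1 and DIC5 passed the F test only without CC-4533 replicate 3.

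In the outer arm, CC-1690 had a median log2 difference of -0.89 in the 3 heavy chains and 0.98 in the 10 light chains, and CC-1691 one of 0.82 and -0.24. After the span correction these medians were -0.27 and 0.38 in CC-1690 and 0.57 and -0.03 in CC-1691, where 2 of the 10 light chains were called lower before the correction and 0 after it. Of members there were 6 pairs that are neighbors in the genome, among them IFT88 and TWI1. The log2 difference of TWI1 was 0.91 in CC-1690 and -0.96 in CC-1009, whereas that of IFT88 was -0.25 and -0.04. RSP4 and RSP6, which are adjacent copies, had differences of -0.25 and -0.28 in CC-1009 and of 0.30 and 0.22 in CC-125.

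Set beside the members, the FAP genes had median log2 differences of -0.32 in CC-1690 and 0.23 in CC-4532, the lowest and highest of their 7 medians. In CC-1690 165 of 336 were lower and 68 higher, compared with 35.3% and 34.2% of all genes tested. With the span correction 138 were lower and 47 higher, compared with 32.3% and 31.2% of all genes tested. In CC-4532 29 were lower and 109 higher, compared with 27.4% and 26.6% of all genes tested. The other ciliary genes had medians between -0.09 and 0.11 in the 7 strains. The cell division genes had medians of 0.71 in CC-124, 0.49 in CC-1690 and 1.06 in CC-4533, and of -0.77 in CC-4532. All 24 fell in CC-1009, compared with 24.5% of all genes tested. The medians of the 118 members were 0.02 in CC-124, -0.08 in CC-1690, -0.03 in CC-4533, -0.10 in CC-1009 and 0.16 in CC-4532. In bulk cultures, fewer ciliated cells and less RNA per cell cannot be told apart.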

How the data were processed

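Poly-adenylated RNA of 28 cultures was sequenced by the authors as short single-end reads, aligned by STAR against the v6.1 assembly of CC-4532 with 1 random location per multimapping read, and counted with featureCounts. The authors deposited FPKM values per library, calculated with DESeq2 and rounded. The second deposited table, of strain means, was not used. In 1 line of the table with a split definition, values were read from its end.

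The 118 members and the gene lists were chosen with earlier results of these data known. All 28 libraries were fitted in limma 3.58.1 (R 4.3.3) with a variance trend on log2(FPKM + 0.1). The 14785 genes whose strain mean exceeded 1 FPKM in any strain were tested, and p-values were adjusted over these genes (Benjamini-Hochberg). The fit was tested on simulated data. Samples were grouped by the strain in the labels. The replicates are separate flasks of one strain, and the p-values measure the spread among these. The paper states that the flasks of CC-125 and CC-4533 were each inoculated as 1 batch. Those of every other strain came from more than 1 batch. The fit treated all flasks of a strain as independent and did not include the batch. For CC-125 and CC-4533 the p-values therefore hold no spread between batches. A fold change of low genes is understated by the pseudocount.

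Statistics are given for the 3 members with the largest rise and fall per strain among called members whose 4 replicates all lay outside the other 24 libraries, and for the largest and smallest ratio of strain means per group, and other named members are marked as chosen after their values were seen, or given by level. Alternatives were the pseudocount, scaling, filter, threshold, replicate block, library set and each library left out. A correction for genomic span (RefSeq v5.5 annotation) was added after seeing the data. No sequences are shown.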

Additional observations from a re-analysis of the deposited data

Results flagged for a closer look

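In each strain the median log2 deviation of each gene group was examined for a replicate far from the other 3. Of 105 combinations of group and strain 12 were picked out, where chance picks out about 1 in 20.

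CC-4533 replicate 3 accounted for 7 of the 12. Its median deviation was 0.84 for the outer arm docking complex, with the other 3 replicates between -0.77 and -0.51. It was 0.74 for the inner arm heavy chains, with the others between -0.31 and -0.22. It was 0.87 for the cytoplasmic dynein (others -0.52 to -0.33), 0.71 for IFT-A (others -0.45 to -0.34), 0.39 for the BBSome (others -0.23 to -0.13) and 0.76 for the FAP genes (others -0.36 to -0.18). The cell division genes were at -0.41, with the others between 1.30 and 1.37.

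The other 5 were small in size. CC-4532 replicate 2 had 0.16 for the outer arm dynein (others 0.03 to 0.04), and CC-4532 replicate 3 had 0.20 for the docking complex (others 0.31 to 0.32). CC-124 replicate 3 had 0.08 for the cytoplasmic dynein (others -0.20 to -0.17). CC-1009 replicate 2 had 0.15 for IFT-A (others 0.03 to 0.04) and -0.01 for all 118 members (others -0.12 to -0.10).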

How the results depend on the processing

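Leaving out 1 library at a time gave 79 to 113 members differing over the strains, 1 to 14 DEGs, and called members of 15 to 41 in CC-124, 32 to 62 in CC-125, 23 to 49 in CC-1009, 66 to 88 in CC-1690, 26 to 50 in CC-1691, 27 to 74 in CC-4532 and 11 to 76 in CC-4533. Every upper end came from leaving out CC-4533 replicate 3. With library set 1 only, calls were 42 in CC-124, 51 in CC-1691 and 67 in CC-4532, and there were 8 DEGs. This fit also lacks CC-4533 replicate 3. At an adjusted p below 0.01, calls were 11 in CC-124, 27 in CC-125, 19 in CC-1009, 20 in CC-4532 and 7 in CC-4533, and with the treat test against 2-fold 0 in all 7 strains. DEGs numbered 0 with the span correction, compared with 26.6% of all genes tested. With a moderated test above 2-fold they numbered 41, compared with 64.1%, and with a pseudocount of 1 they numbered 0. For library set 1, the other pseudocounts, an adjusted p below 0.01 and the replicate block, shares of all genes tested are not given. The same holds for leaving out a library other than CC-4533 replicate 3. In these settings a changed count of members was not compared with that of all genes. The span correction left 49 calls in CC-1690, against 75 without it. The other totals of called members stayed within 1.5 times of those reported under the alternatives run. Single differences of a gene in a strain were followed for the 12 picked as the 3 largest rises and falls per strain without overlap. In CC-1690 more members lay outside the other 24 libraries, RSP2 among them, and these were not followed. The 12 kept their direction and, except under the treat test, their call in all alternatives. Choosing them for lack of overlap favors this outcome. DHC2, IFT20, RSP12 and BBS1 are not among the 12. Of 2827 recalculated group medians, 52 moved by more than the spread between replicates.

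The replicate numbers do not pair the cultures. Deviations of same-numbered libraries of different strains had correlations from -0.37 to 0.28, and 5 of 28 libraries correlated best with their own number. With the replicate block, 81 members differed over the strains, 2 were DEGs, and 19, 40, 35, 73, 31, 35 and 17 were called in the strains from CC-124 to CC-4533. Without read counts, depth limits the low genes to an unknown degree.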
